A study of Sus scrofa with 297 samples.

Results

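The transcripts of 9 apolipoprotein genes and of MTTP were followed through the livers of German Landrace pigs, 1 liver per pig. These 10 genes, APOA1, APOA2, APOA4, APOA5, APOB, APOC2, APOC3, APOE, APOH and MTTP, were chosen by name, as the genes that carry these symbols in the array's probe annotation, among 10503 genes with a symbol in the tested data. All pigs belonged to a single group, adult animals of this breed that were performance-tested and not treated in any way that the labels state, and a piece of liver was taken from each at slaughter. Each liver was hybridised to its own Affymetrix Snowball array, a porcine array on which a gene is read by 1 or more sets of short probes. The labels gave 3 carcass traits for all but 8 pigs: loin eye area (LEA), the cross-section of the long back muscle at the rib, fat area (FA), the fat lying over it, and a meat to fat ratio (MFR). In every pig with traits the deposited MFR lay within 0.01 of FA divided by LEA, so a high MFR stands for a fat carcass here. LEA ranged from 27.8 to 68.4 cm2 with a median of 43.3 cm2, FA from 2.4 to 30.0 cm2 with a median of 14.4 cm2, and MFR from 0.06 to 0.74 with a median of 0.32. Sex, litter, slaughter day and feeding before slaughter were not used here, and p-values measure the spread between pigs only as far as the pigs are independent.

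The liver exports triglyceride and cholesterol in very-low-density lipoprotein, a particle built around a single molecule of apolipoprotein B. The microsomal triglyceride transfer protein, the product of MTTP, loads lipid onto apolipoprotein B in the endoplasmic reticulum, and particles that are not loaded are degraded. The smaller apolipoproteins sit on the surface and can move between particles. APOA1 and APOA2 encode the main proteins of high-density lipoprotein, and APOE the ligand by which remnant particles are taken up. APOC2 encodes the activator of lipoprotein lipase and APOC3 an inhibitor of that lipolysis. APOA5 raises the lipolysis of triglyceride-rich particles, and APOA4 is made in the intestine and, in some species and states, in the liver. APOH, or beta-2-glycoprotein I, is a plasma protein that binds anionic phospholipids and is carried in part on lipoproteins.

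Symbols matched 21 probe sets of the 10 genes, of which 18 passed the filter on signal and 3, 2 of APOB and 1 of APOC2, lay below it. A transcript was tested when its 20th percentile of signal over the pigs was at least 5.32 on the log2 scale, which left 24910 of 47722 probe sets. For each gene the tested probe set with the highest mean signal was used, and the others were compared with it. Arrays have no read depth, and their number limits the precision. Array medians lay between 5.58 and 5.78, and the median Pearson's r of an array with the other arrays between 0.880 and 0.967. The 10 arrays with the lowest median r, from 0.880 to 0.910, included 5 from pigs of number series 29 and 2 from series 26 (the first 2 digits of the animal number, of which there were 9 series). The counts of calls were repeated without these 10 arrays, a choice made after the data were seen. Of the hepatocyte markers 8 of 9 on the array passed the filter, ALB, TTR and TF among them. Markers of enterocytes, which also make APOA4, APOB and MTTP, passed the filter for 2 of 5 genes on the array, ANPEP and VIL1. Markers of pancreatic acinar cells passed for 2 of 4 and those of adipocytes for 3 of 5.

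The signal of APOA4 varied far more from liver to liver than that of the other genes, whose highest and lowest pigs differed by 1.77-fold (APOC3) to 8.11-fold (APOA5). The log2 signal of APOA4 ran from 7.60 in the lowest pig through a median of 10.75 to 12.88 in the highest, a 38.9-fold range, with a SD of 1.18 that was 4.46 times the median SD of 0.265 over all tested transcripts. Its SD exceeded that of 99.9% of tested transcripts. The livers did not fall into a low and a high class: 6 pigs lay between 7 and 8, 30 between 8 and 9, 52 between 9 and 10, 81 between 10 and 11, 91 between 11 and 12, and 37 between 12 and 13. Among the sets used APOA5 came next, from 9.68 through 11.13 to 12.70, with a SD of 0.47 that exceeded that of 89% of transcripts.

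This order depends on the probe set. A dimmer tested set of APOA2 had a SD of 0.55 and an 8.82-fold range, and a dimmer tested set of APOB a SD of 0.53 and a 6.92-fold range, both above the SD of APOA5. In the sets used, APOB and MTTP varied less than APOA5. The APOB signal ran from 12.46 through a median of 13.22 to 13.49, a 2.04-fold range with a SD of 0.17, and that of MTTP from 9.80 through 11.22 to 11.90, with a SD of 0.32. Both had their long tail below the median, so that their signal was low in a few livers and far above the rest in none. The APOB set used had a mean signal above that of 99.8% of tested transcripts. Whether so bright a signal could rise further was not tested. The dimmer APOB set ran from 9.81 through 11.49 to 12.60. The high-density lipoprotein genes ran from 10.20 through 10.82 to 11.59 for APOA1 (SD 0.22) and from 11.60 through 12.88 to 13.41 for APOA2 (SD 0.27). APOC2 ranged from 10.43 through 11.09 to 11.72 (SD 0.19) and APOC3 from 12.41 through 12.91 to 13.23 (SD 0.14). APOE lay between 11.85 and 12.87 with a median of 12.45 (SD 0.15). APOH lay between 12.15 and 13.16 with a median of 12.87 (SD 0.14). Fewer hepatocytes in a piece of liver and less RNA per hepatocyte cannot be told apart in these values.

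**Figure D1:**
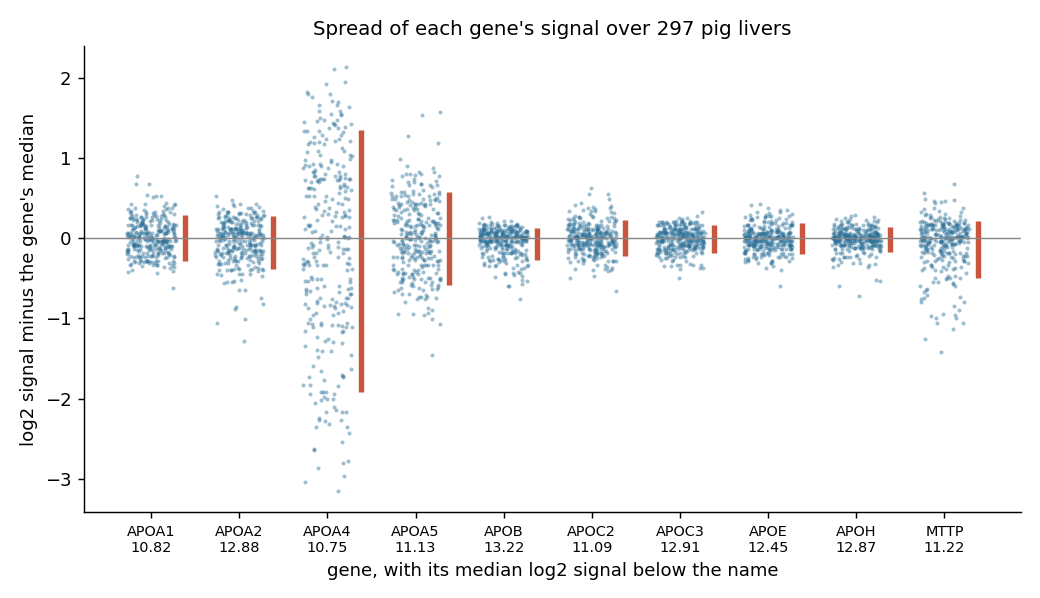
Log2 signal of each gene in each pig liver (points), given as the difference from that gene's median, with the 10th to 90th percentile range as a bar beside the points. APOA4 spreads over more than 5 log2 units (7.60 to 12.88), APOA5 over about 3 (9.68 to 12.70), and MTTP, the next widest, from 9.80 to 11.90.

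Most probe sets of the same gene varied together. The 2 sets of APOA5 correlated at a rho of 0.94, those of APOA2 at 0.79 and those of APOA1 at 0.77 over all pigs. The 2 brighter sets of APOA4 correlated at 0.98, with ranges of 38.9-fold and 18.5-fold. Another APOA4 set of low signal, with a mean of 6.38, had a SD of only 0.22 and correlated at 0.14 and 0.16 with the others. Of the 4 tested sets of APOB, 3 correlated with each other at 0.75 to 0.95, while the fourth, with a mean of 13.10 and a SD of 0.06, reached only 0.17 to 0.25. Correlations with APOB therefore depend on the set: with MTTP they were 0.77, 0.75, 0.49 and 0.36 over its 4 sets. In the same order they were 0.65, 0.64, 0.63 and 0.09 with APOH and -0.70, -0.67, -0.52 and -0.17 with APOE. The names of the sets used for APOA1 and APOA5 carry a suffix that the sources used here do not explain, and whether they also read other transcripts was not tested.

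The first question put to these livers was whether the expression of a gene follows the fatness or muscling of the carcass. For the apolipoprotein genes and MTTP no such correlation was detected. At an FDR of 1% by Spearman correlation with Benjamini-Hochberg adjustment over all tested transcripts, 0 of 10 genes were correlated with LEA, beside 0.823% of all 24910 transcripts. For FA the count was 0 of 10 beside 0.329% (82 transcripts), and for MFR 0 of 10 beside 0.189% (47 transcripts). With backgrounds this low, a count of 0 among 10 genes lies near the background. None of the 30 correlations had an unadjusted p under 0.05 either, and 2 did with Pearson correlation, both with LEA: APOE with an r of -0.150 (permutation p = 0.011) and APOC2 with an r of -0.119 (permutation p = 0.043), neither of which passed the adjustment.

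The values leave little room for a strong relation. Over the 30 correlations rho lay between -0.089 and 0.101, and the 95% intervals between -0.203 and 0.214, whereas the weakest transcript that was called had a rho of 0.230 in size for LEA, 0.242 for FA and 0.249 for MFR. The largest value was that of APOC2, the activator of lipoprotein lipase, with MFR, at a rho of 0.101 (95% interval -0.015 to 0.214, permutation p = 0.087, FDR = 0.68). Its Pearson's r of 0.107 (permutation p = 0.071) became 0.096 when the 2 most extreme pigs in MFR were dropped. APOC2 had a mean log2 signal of 11.08 ± 0.19 (SD, n = 85) in the pigs up to the 25th percentile of MFR and of 11.13 ± 0.21 (SD, n = 73) in those from the 75th percentile. APOA4 had 10.77 ± 1.13 (SD, n = 85) in the former and 10.50 ± 1.25 (SD, n = 73) in the latter, with a rho of -0.076 (permutation p = 0.2, FDR = 0.83) with MFR and an r of -0.085 (permutation p = 0.15). For APOB the rho with MFR was -0.080 (permutation p = 0.17, FDR = 0.8), and for MTTP -0.076 (permutation p = 0.2, FDR = 0.83). In both comparisons the groups differed by less than the SD within them.

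**Figure D2:**
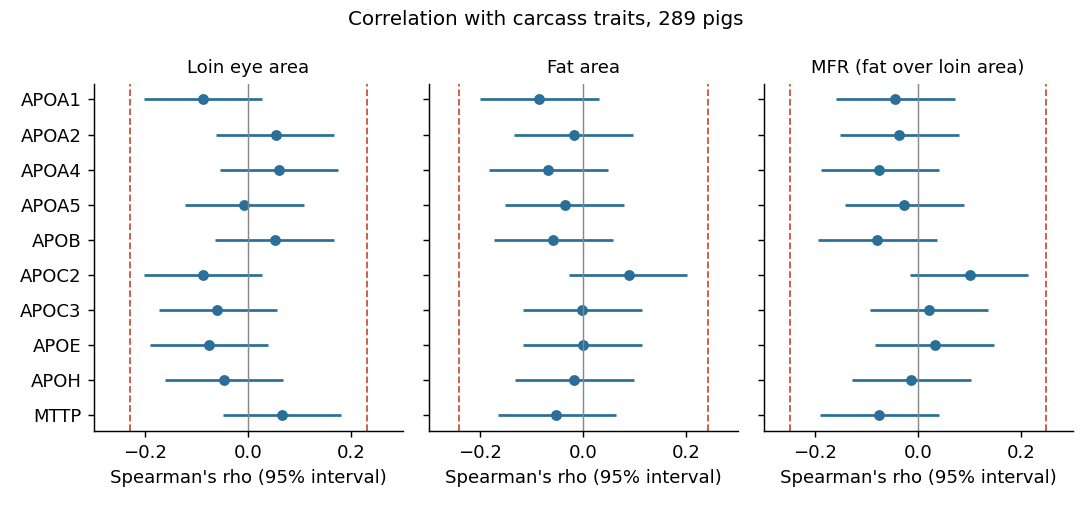
Spearman's rho of the 10 genes with loin eye area, fat area and MFR over the pigs with traits, with 95% intervals as lines. Dashed lines mark the weakest correlation that passed an FDR of 1% among all transcripts (0.230, 0.242 and 0.249 in size). All 30 points lie between -0.089 and 0.101, and no interval reaches a dashed line.

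Correlation within number series, with ranks centred in each, moved APOA4 furthest from 0, to a rho of 0.144 with LEA, -0.122 with FA and -0.139 with MFR. The sign was positive in 8 of 9 series for LEA and in 1 of 9 for FA and MFR. None of these passed an FDR of 1%. The genes around the apolipoproteins showed few trait correlations as well. Among 28 tested genes of lipoprotein assembly and secretion, 1 was called: CES1, a hepatic carboxylesterase that acts on stored lipid, fell with LEA (rho = -0.23, FDR = 0.0084). Among 36 tested regulators of apolipoprotein genes MLXIPL, which encodes the carbohydrate-responsive factor ChREBP, rose with LEA (rho = 0.27, FDR = 0.0024). The hepatocyte marker TAT fell with LEA (rho = -0.27, FDR = 0.0017). None of 7 genes listed as other apolipoproteins (PON1, APOO and APOOL included), 19 genes of lipases, transfer and uptake, and 16 positive acute phase proteins passed for any of the 3 traits.

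The second question was which of these genes vary together from liver to liver. The highest value among the 10 genes was that of APOA4 with APOA5. Across all pigs they correlated at a rho of 0.87 (95% interval 0.83 to 0.90), with a Pearson's r of 0.86 that stayed at 0.86 when the 2 most extreme pigs in APOA4 were dropped (permutation p = 1e-05 for both, the smallest that 100000 permutations can give). Of all other genes with a symbol, APOA5 was the nearest to APOA4 and APOA4 the nearest to APOA5. The correlation was positive in 9 of 9 number series, from 0.63 to 0.89, and 0.83 with ranks centred within series. Livers low in APOA4 tended to be low in APOA5, over a smaller span: the SD of APOA5 was 0.39 times that of APOA4. Between the 2 concordant APOA4 sets and both APOA5 sets rho was 0.77, 0.79, 0.87 and 0.87, and for the dim APOA4 set it was 0.17 and 0.22.

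**Figure D3:**
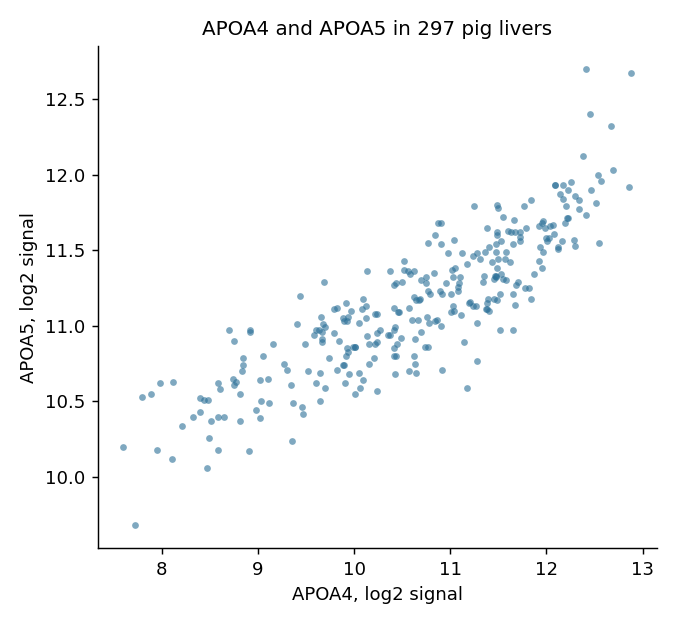
Log2 signal of APOA4 (horizontal) and APOA5 (vertical) in all pig livers, 1 point per pig. The points form a single band with no separate clusters (rho = 0.87), which spans 7.60 to 12.88 for APOA4 and 9.68 to 12.70 for APOA5.

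These genes lie side by side. In the RefSeq annotation of Sscrofa11.1 the order is APOA5, APOA4, APOC3 and APOA1, with no other protein-coding gene between them, but the correlations within the cluster were unequal. Of its 6 pairs 4 were called, all positive, and apart from APOA4 with APOA5 their values were low. Beside this count, the called share of all transcripts was 76% for APOA1, 68.2% for APOC3, 44.4% for APOA5 and 20.3% for APOA4. APOC3 correlated at 0.30 with APOA5 and at 0.11 with APOA4 (FDR = 0.16). APOA1 correlated at 0.23 with APOA5, 0.19 with APOC3 and 0.17 with APOA4 (FDR = 0.015 from the side of APOA4, not called). Outside the cluster, BUD13, a splicing factor gene near the APOA5 end, correlated at 0.52 with APOA4 and 0.39 with APOA5, and beyond it CADM1 at -0.11 and -0.28. On the other side SIK3, next to APOA1, was at 0.30 and 0.34, PAFAH1B2 at -0.18 and -0.22 and SIDT2 at 0.29 and 0.50, so the flanking genes had no common sign.

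Of the 24909 other transcripts 20.3% were called as co-expressed with APOA4, the lowest share among the 10 genes, and 44.4% with APOA5. The genes nearest to APOA4 after APOA5 were RNF152, a ubiquitin ligase of the lysosome (rho = 0.72), MFSD2A, a lysophosphatidylcholine transporter that in mouse liver rises with fasting (0.71), and G6PC, the glucose-6-phosphatase that releases glucose from the liver (0.70). The most negative were GPAM, the mitochondrial acyltransferase that begins triglyceride synthesis (-0.69), and PALM2 (-0.64). For APOA5 the order was MFSD2A (0.76), ADAMTSL4 (0.74) and CPT1A (0.71), the gate of mitochondrial fatty acid oxidation, and on the negative side DNM3 (-0.66) and PALM2 (-0.65). CPT1A also correlated with APOA4, at 0.70, and GPAM with APOA5, at -0.64, both named outside the rule after their values were seen. All of these passed an FDR of 1%, as did the first 3 and last 2 genes of both rankings after removal of 5 principal components, with MFSD2A at 0.64 with APOA4 and 0.69 with APOA5. GPAM with APOA5 lost its call, at a rho of -0.15 (FDR = 0.058), and RNF152 and G6PC were at 0.49 and 0.43 with APOA4.

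Of 36 regulators 8 were correlated positively and 8 negatively with APOA4, with a median rho of -0.01 beside 0.02 over all tested transcripts and 20.3% of them called in either direction. PPARA, the fatty acid receptor that drives hepatic fat oxidation in fasting, had the highest values with APOA4 and APOA5 among those named here, at 0.64 with APOA4 and 0.69 with APOA5, and kept 0.56 and 0.55 after removal of 5 components. PPARA also had the highest correlation of the list with the mean of the 10 genes (0.52), and RORA, a circadian nuclear receptor, the lowest (-0.34). Other regulators named after their values were seen were NR0B2, which encodes the bile acid-induced repressor SHP (0.47 with both genes), ONECUT1, the hepatocyte factor HNF6 (-0.55 with APOA4 and -0.52 with APOA5), and THRB, the hepatic thyroid hormone receptor (-0.53 and -0.45). HNF4A, also named outside the rule, the hepatocyte factor that binds the regulatory region of this cluster in human and mouse, was at -0.12 with APOA4 (FDR = 0.094) and was not called with APOA5 either (FDR = 0.96). Of 19 genes of lipases, transfer and uptake, 4 were correlated positively and 2 negatively with APOA4 (median rho 0.03 beside 0.02 over all transcripts). LIPG, endothelial lipase, was at 0.56 and ABCA1, the cholesterol exporter that lipidates apolipoprotein A-I, at -0.47, again both named after their values were seen. Of the enterocyte markers 0 of 2 were called with APOA4, ANPEP at -0.18 and VIL1 at -0.16. Of 5 tested macrophage markers 3 were correlated positively with APOA5, C1QC (0.45), C1QA (0.35) and VSIG4 (0.20), and 2 with APOA4, C1QC (0.27) and VSIG4 (0.27). These markers were named because they were called, where 44.4% of all transcripts were called with APOA5 and 20.3% with APOA4. The part of macrophages in the result was not tested.

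Among all 45 pairs of the 10 genes 36 were called from both sides at an FDR of 1%, 18 positive and 18 negative. This count has to be read against a very high background. APOB was called with 8 of 9 partners where 84.8% of all transcripts were called, MTTP with 8 of 9 where 83.9% were, APOE with 8 of 9 beside 77.8%, APOH with 8 of 9 beside 70.8%, APOC2 with 8 of 9 beside 68.2% and APOC3 with 8 of 9 beside 68.2%. APOA1 was called with 6 of 9 beside 76%, APOA2 with 7 of 9 beside 41.4%, APOA5 with 7 of 9 beside 44.4% and APOA4 with 4 of 9 beside 20.3%. The share of partners lay above the background for all of these genes except APOA1. These shares are not alike, because a partner had to pass from both sides and a background transcript from a single side. From its own side APOA1 also passed with APOA4 (Spearman correlation, FDR = 0.0045). With 9 partners each these differences were not tested.

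The signs split the genes. APOB, MTTP and APOH were positively correlated with each other in 3 of 3 pairs, APOB with MTTP at a rho of 0.77 (95% interval 0.71 to 0.81), with an r of 0.85, or 0.83 with the 2 farthest pigs left out, and APOB with APOH at 0.65 (95% interval 0.57 to 0.72), with an r of 0.73 and 0.70 (permutation p = 1e-05 for each, the smallest possible). APOA1, APOA2, APOC2, APOC3 and APOE were positively correlated in 9 of 10 pairs, APOA1 with APOA2 (rho = 0.07, FDR = 0.27) being the exception. Between these 2 sets 14 of 15 pairs were negative and called, down to -0.70 for APOB with APOE (95% interval -0.76 to -0.62, r = -0.73, and -0.71 without the 2 farthest pigs) and -0.64 for APOE with MTTP (r = -0.71, and -0.70). These sets were formed after the values were seen. Signs were uneven over all 24909 other transcripts too. APOB was called negative with 14526 of them and positive with 6595, MTTP with 14297 and 6605, and APOH with 11330 and 6313. APOE was called positive with 13177 and negative with 6210. For APOA1, APOA2, APOC2 and APOC3 more transcripts were positive than negative as well. The values of APOB are those of the probe set used, and its least concordant probe set was at 0.09 with APOH and -0.17 with APOE. Livers with more APOB and MTTP transcript thus tended to have less APOE, APOC2 and APOC3 transcript.

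This split ran along the main direction of the whole data set. The first principal component held 27.8% of the variance of all tested transcripts, and 5 components held 47.9%. With the first component APOB correlated at -0.84, MTTP at -0.73 and APOH at -0.58, and APOE at 0.63, APOC2 at 0.53, APOA1 at 0.52, APOC3 at 0.51 and APOA2 at 0.29, while APOA5 was at 0.31 and APOA4 at 0.15. The 5 components carried 88.8% of the variance of APOB and 75.5% of that of MTTP, beside 43.7% for the median transcript and 41.4% for APOA4. The component moved with the likeness of an array to the others (rho = -0.52 with its median r), and so did APOB (0.52), MTTP (0.40), APOH (0.40), APOA1 (-0.36), APOA5 (-0.33) and APOE (-0.29), beside a median size of 0.28 over all transcripts. The part of array or RNA quality in these correlations was not tested. Without the 10 arrays least like the others 34 of 45 pairs were called, beside 18.5% to 81.7% of all transcripts for the 10 genes. There APOB with MTTP was at 0.74 and APOB with APOE at -0.67.

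With 5 components removed 14 of 45 pairs were called, beside 1.8% to 17.2% of all transcripts for the 10 genes. Of the 15 pairs between the 2 sets APOE with MTTP alone remained negative and called (-0.19, FDR = 0.0095), APOB with APOE was at -0.14 (FDR = 0.16), and APOA1 with APOH (0.30, FDR = 9e-06) and APOE with APOH (0.20, FDR = 0.0082) were positive and called. With the first component alone removed APOB with APOE (-0.30, FDR = 2.2e-06), APOE with MTTP (-0.27, FDR = 9.7e-05) and APOB with APOC2 (-0.17, FDR = 0.0094) were still negative and called. What remained were smaller units. A set of 7 pairs was called with the same sign in the main analysis and in all 9 alternatives. APOA4 with APOA5 kept 0.80 to 0.88 over these settings, APOC2 with APOC3 0.47 to 0.76, APOB with MTTP 0.42 to 0.85, APOA2 with APOC3 0.38 to 0.53, APOA1 with APOE 0.36 to 0.63 and APOA2 with APOC2 0.24 to 0.52, and APOE with MTTP stayed negative from -0.71 to -0.19. APOB with APOH was not among them (0.07 with 5 components removed, FDR = 0.57). APOA4 with MTTP was at 0.24 and, with the components removed, at 0.34, and APOA5 with MTTP at 0.05, not called, and at 0.32. By Pearson correlation APOA4 with MTTP lost its call (r = 0.10, FDR = 0.16).

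**Figure D4:**
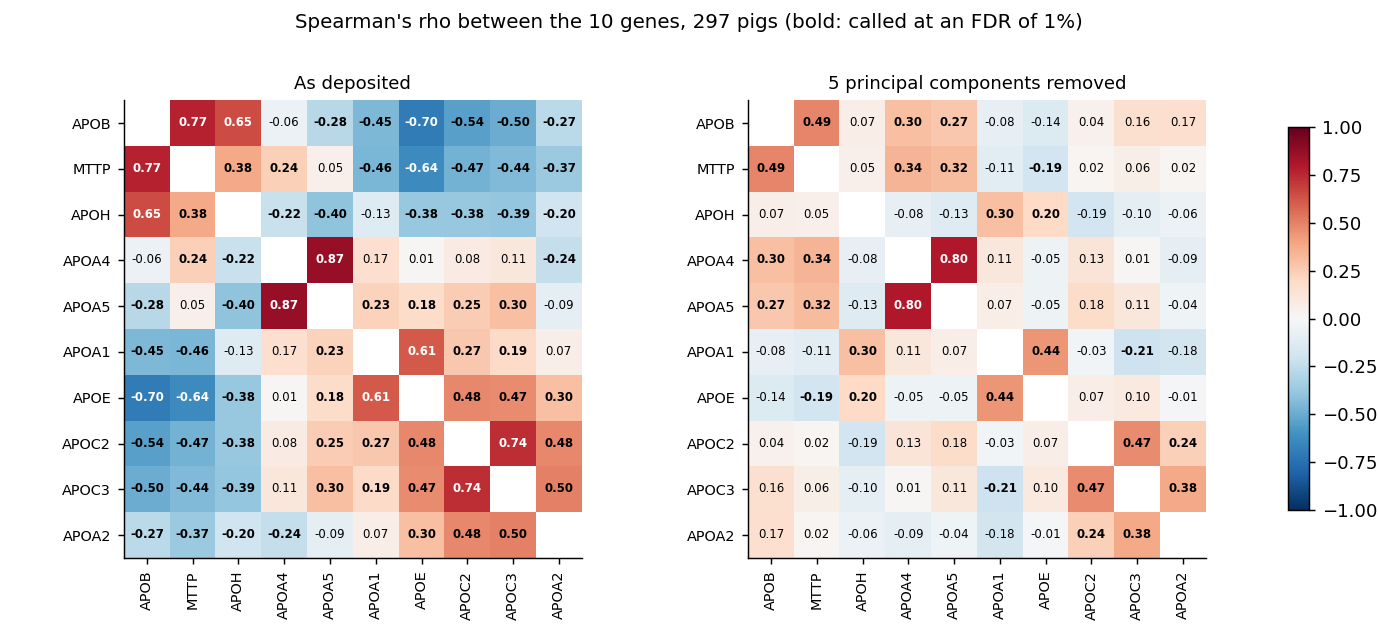
Spearman's rho for all pairs of the 10 genes over all pig livers, with the values as deposited (left) and after removal of 5 principal components of all tested transcripts (right). Red is positive, blue negative, and bold marks an FDR under 1%. On the left APOB, MTTP and APOH oppose APOA1, APOE, APOC2, APOC3 and APOA2, and on the right APOA4 with APOA5 (0.80), APOB with MTTP (0.49), APOC2 with APOC3 (0.47) and APOA1 with APOE (0.44) stand out.

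APOC2 and APOC3, the activator and the inhibitor of lipolysis, lie in different clusters, APOC2 beside APOC4 and APOE. APOC3 was the nearest of all genes to APOC2 (rho = 0.74, 95% interval 0.68 to 0.79, r = 0.76, and 0.76 without the 2 farthest pigs), positive in 9 of 9 number series from 0.54 to 0.91. Seen from APOC3, APOC2 was at place 15. APOE, which shares the cluster with APOC2, correlated with it at 0.48. Next to APOC3 stood GPS2, a corepressor subunit (0.82), MRPS18A of the mitochondrial ribosome (0.81) and NDUFB11 of respiratory complex I (0.78), and at the other end TAF15 (-0.68) and LEO1 (-0.67). Next to APOC2 after APOC3 were ARF3 (0.73), NDUFB11 (0.73) and PDK2, a kinase that inhibits pyruvate dehydrogenase (0.71), and at the other end HNRNPH3 (-0.64) and RLIM (-0.63). APOA2 shared PDK2 as its nearest gene (0.60), followed by GJB1, the hepatocyte connexin (0.57), and CYP4A24, a fatty acid hydroxylase (0.54), with PRPF4B (-0.52) and RBM8A (-0.49) at the other end. For APOC2, HNRNPH3 and RLIM lost their calls with 5 components removed (-0.11 and -0.14).

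Of 28 genes of lipoprotein assembly and secretion 15 were correlated positively and 7 negatively with APOC3 (median rho 0.18 beside 0.14 over all transcripts). Of all transcripts 68.2% were called with APOC3. CIDEB, which lipidates very-low-density lipoprotein in mouse liver, had the highest correlation of the list with the mean of the 10 genes (0.50) and was at 0.68 with APOC3 and 0.58 with APOC2, and HSPA5, the chaperone BiP, had the lowest (-0.34). TM6SF2, a gene of lipid loading that was named after its values were seen, was at 0.77 with APOC3 and 0.69 with APOC2, and at 0.53 and 0.36 with 5 components removed. LCAT, the plasma enzyme that esterifies cholesterol on high-density lipoprotein, led the list of lipases, transfer and uptake (0.49 with the mean of the 10 genes, against -0.26 for ABCA1) and was at 0.72 with APOC3 and 0.67 with APOC2, and at 0.45 and 0.43 with the components removed.

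APOA1 was nearest to ACAA1, a peroxisomal thiolase (rho = 0.64), RPL7A of the ribosome (0.62) and SDHA of respiratory complex II (0.59), with PCMTD1 (-0.69) and MAGT1 (-0.65) at the other end. APOE ranked at place 3 among all genes in likeness to APOA1 (rho = 0.61, 95% interval 0.53 to 0.69, r = 0.63, also 0.63 without the 2 farthest pigs), and within series the value was 0.60, positive in 8 of 9. APOE itself was nearest to RARRES2, the gene of the adipokine chemerin (0.78), TTC36 (0.74) and USP19 (0.72), with ARCN1, a coatomer subunit (-0.74), and CBX3 (-0.73) at the other end. A list of other apolipoproteins also held PON1, APOO and APOOL, which are not exchangeable apolipoproteins. Of its 7 tested genes 4 were correlated positively with APOE and 2 negatively (median rho 0.18 beside 0.17), and the 2 were PON1 (-0.58) and APOOL (-0.55). Of all transcripts 77.8% were called with APOE. APOC4, named for its place between APOE and APOC2 on the chromosome, was at 0.53 with APOE, 0.51 with APOA1 and 0.40 with APOC2. CLU, clusterin, had the highest correlation of that list with the mean of the 10 genes (0.38) and APOOL, a mitochondrial protein in spite of its name, the lowest (-0.24).

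APOB was nearest to MYNN, a zinc finger gene (rho = 0.89), HNRNPA2B1, an RNA-binding protein gene (0.89), and CD302, a lectin receptor gene (0.88), with RARRES2 (-0.77) and TLN1 (-0.77) at the other end. None of these 5 kept a call with 5 components removed (-0.17 to 0.16), whereas MTTP did, at 0.49. MTTP was nearest to CHUK (0.79), EVI5 (0.79) and MON2 (0.78), with RARRES2 (-0.71) and TTC36 (-0.70) at the other end, and all 5 kept their calls, from -0.32 to 0.30. The genes of export from the endoplasmic reticulum had both signs, and those named here were chosen after their values were seen. SEC23A, a COPII coat subunit, was at 0.78 with MTTP and 0.59 with APOB, and at 0.53 and 0.37 with the components removed. LMAN1, a cargo receptor, was at 0.76 and 0.83, and at 0.46 and 0.44. SAR1B, the small GTPase whose loss causes chylomicron retention in humans, was at 0.55 and 0.46, and at 0.18 (FDR = 0.022) and -0.02 (FDR = 0.88). On the negative side SURF4, a cargo receptor for lipoproteins, was at -0.44 with MTTP and -0.51 with APOB, and KLHL12, an adaptor in COPII coat assembly, at -0.31 and -0.44. The whole list of assembly and secretion was mixed, with 9 genes positive and 16 negative for MTTP (median rho -0.21 beside -0.22) and 9 and 16 for APOB (-0.32 beside -0.23). Of all transcripts 83.9% were called with MTTP and 84.8% with APOB. DGAT1, which makes triglyceride and was also named after its values were seen, was at -0.59 with APOB, and TM6SF2 also at -0.59.

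APOH was nearest to CFI, complement factor I (rho = 0.72), RBL2 (0.71) and PON1, the paraoxonase of high-density lipoprotein (0.71), and PRAF2 (-0.71) and SERTAD1 (-0.70) lay at the other end. PON1 lost its call with 5 components removed (0.15, FDR = 0.059). Positive acute phase proteins, tested because several apolipoproteins fall in inflammation, differed in count and sign between the genes. For APOA4 0 of 16 were positive and 3 negative (median rho -0.02 beside 0.02), and for APOA2 1 was positive and 5 negative (-0.10 beside 0.08). Of all transcripts 20.3% were called with APOA4 and 41.4% with APOA2. For APOH 6 of 16 were positive and 3 negative (median rho 0.11 beside -0.13), and for APOA1 4 were positive and 5 negative (-0.02 beside 0.16). Calls with APOH covered 70.8% of all transcripts and those with APOA1 76%. With APOB (84.8% of all transcripts called) and MTTP (83.9%) 6 were positive and 4 negative each. APOA5 had 3 and 5 (44.4%), APOC2 4 and 6 (68.2%), APOC3 4 and 7 (68.2%) and APOE 5 and 7 (77.8%). HP, haptoglobin, had the highest correlation of that list with the mean of the 10 genes (0.25) and CP, ceruloplasmin, the lowest (-0.27). Red blood cell markers, 4 tested, were positive with APOA1, APOC2, APOC3 and APOE in 4 of 4 each and negative with APOB and MTTP in 4 of 4 each, with median rho of 0.20, 0.24, 0.25, 0.28, -0.32 and -0.30 beside 0.16, 0.14, 0.14, 0.17, -0.23 and -0.22 over all transcripts, of which 68.2% to 84.8% were called. Adipocyte markers, 3 tested, had low mean signals of 5.96 to 7.08. They were negative with APOB (median rho -0.35 beside -0.23 over all transcripts) and MTTP (-0.37 beside -0.22) in 3 of 3 each. With APOA1 they were positive in 3 of 3 (0.32 beside 0.16). Calls with APOB covered 84.8% of all transcripts, those with MTTP 83.9% and those with APOA1 76%. Counts of 3 of 3 therefore lie near the background. These signs were not particular to red blood cell and adipocyte markers. Median rho with APOB and MTTP was -0.23 and -0.27 for 6 T and NK cell markers, and -0.26 and -0.30 for 5 macrophage markers. For 8 hepatocyte markers it was 0.15 and 0.08, and for 7 stellate cell and fibroblast markers 0.10 and -0.04. The part of any cell type in the opposition of these genes was not tested.

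The animals came in number series, and the last comparison asked how far the genes differed between them. What a series stands for, such as a year, a farm or a processing batch, is not stated in the labels. By limma's moderated F test over 9 series 9 of 10 genes differed at an FDR of 1%, beside 88% of all tested transcripts, so that this count also lies at the background. APOA2 was the exception (FDR = 0.038), but its dimmer set, with 19.1% of the variance between series against 5.5% for the set used, was called (FDR = 4.6e-10). Of the variance of APOA4 29.2% lay between series, which was more than for 90.4% of tested transcripts, and of that of APOA5 25.8%, beside a median of 15% over all transcripts. The APOA4 signal was lowest in series 28, at 9.67 ± 1.07 (SD, n = 46), and was 9.79 ± 1.19 in series 22 (SD, n = 19) and 9.85 ± 1.03 in series 23 (SD, n = 31). It was highest in series 21, at 11.41 ± 0.64 (SD, n = 29), and 11.38 ± 1.0 in series 27 (SD, n = 20). The means of series 21 and 28 differed 3.34-fold, which was not tested by itself. The limma F test of APOA4 over all 9 series had an FDR of 1.8e-17. The ranges of single pigs overlapped, from 7.60 to 11.49 in series 28 and from 10.12 to 12.69 in series 21. APOA5 followed, at 10.75 ± 0.36 in series 28 (SD, n = 46), 10.93 ± 0.37 in series 22 (SD, n = 19) and 10.85 ± 0.37 in series 23 (SD, n = 31), and was highest in series 27, at 11.47 ± 0.43 (SD, n = 20). Its limma F test over all 9 series had an FDR of 8.6e-15.

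The small series 26, with 9 pigs, held the highest means of APOA1, APOA2, APOC2, APOC3 and APOE and the lowest of APOB, APOH and MTTP. APOB was at 12.92 ± 0.18 (SD, n = 9) there and at 13.25 ± 0.16 (SD, n = 46) in series 28, a 1.26-fold difference. MTTP was at 10.78 ± 0.31 (SD, n = 9) in series 26 and 11.33 ± 0.22 (SD, n = 29) in series 21. APOE was at 12.65 ± 0.10 (SD, n = 9) in series 26 and 12.34 ± 0.14 (SD, n = 29) in series 21. In the sets used the extremes of genes other than APOA4 and APOA5 differed between series by 1.1-fold to 1.46-fold, and those of APOA5 by 1.65-fold. Other sets spread more. The dimmer APOB set ran from 10.73 ± 0.37 (SD, n = 9) in series 26 to 12.03 ± 0.53 (SD, n = 46) in series 28, with 31.5% of its variance between series. The dimmer APOA2 set ran from 7.19 ± 0.55 (SD, n = 29) in series 21 to 8.31 ± 0.51 (SD, n = 9) in series 26. Of the 10 arrays least like the others 2 were in series 26, and the relation of series to array likeness was not tested. With series 26 left out APOC3 alone changed its call and lost it (FDR = 0.02). The same held with series 29 left out (FDR = 0.016). Over all series 88% of all tested transcripts were called, and the share with a series left out is not given here.

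**Figure D5:**
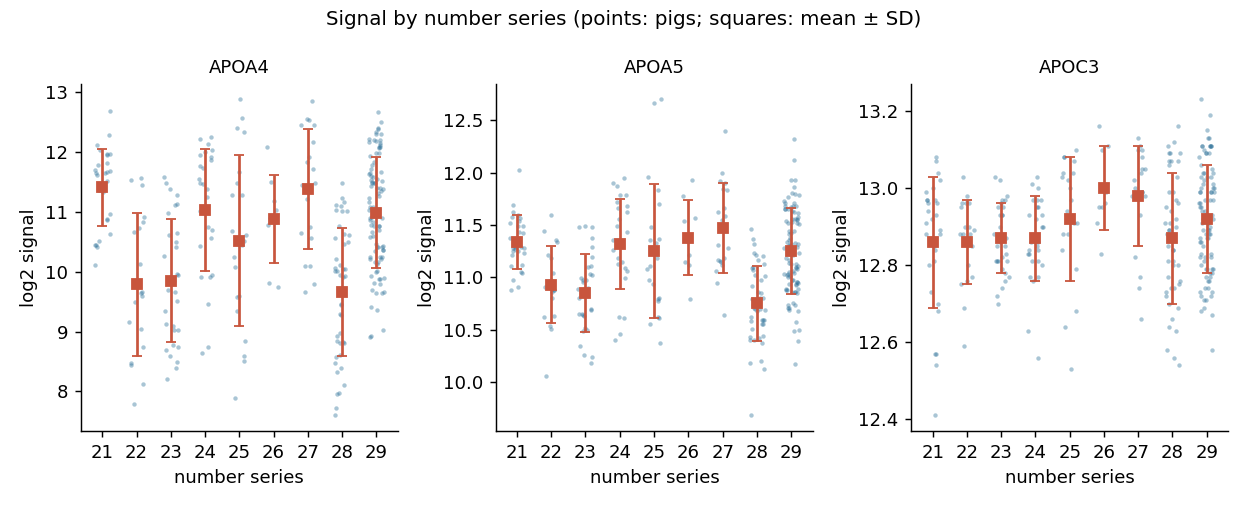
Log2 signal of APOA4, APOA5 and APOC3 by number series, the first 2 digits of the animal number (points are pigs, squares and bars are the mean ± SD of a series, and each panel has its own scale). APOA4 and APOA5 are low in series 22, 23 and 28 together, from 9.67 to 9.85 and from 10.75 to 10.93, while APOC3 means stay between 12.86 and 13.0.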

How the data were processed

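Liver RNA of 297 pigs was measured on Affymetrix Snowball arrays, 1 per pig. The table deposited by the authors holds log2 signals from the robust multichip average (RMA), computed in Expression Console per the study's methods. RMA puts the arrays it is run on together on a common distribution, which hides differences in total RNA. GCOS 1.1.1 is named in the submitters' processing notes. After 123 controls were left out, probe sets were ranked by the 20th percentile of their signal and the upper 52.2% tested, in place of the authors' detection calls. Symbols came from the platform's probe annotation. The study's residuals (kinship, sex, carcass weight) were not formed here. There was 1 group of pigs, and 0 columns were left unused.

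Spearman correlations had p-values from the t distribution, adjusted after Benjamini and Hochberg across every tested transcript (FDR of 1%). A pair was called when it passed from both of its genes. Single values had 100000 permutations, two-sided. Intervals of rho are 95% intervals by Fisher's transformation. Number series were compared by limma's moderated F test. Named in the text were all 10 genes, the 3 nearest and 2 most opposite genes of each, and, from each list, genes passing with a trait and the extremes against the mean of the 10 standardized genes, with exceptions marked, and genes beside the 2 gene clusters. Members and lists were chosen with earlier results of these data known. Tests were tried on simulated data. Alternatives were Pearson correlation, number series as a block, 5 components removed, 2 far pigs left out, other filters and other probe sets. limma 3.58.1 ran under R 4.3.3. Correlations used scipy 1.17.1 and pandas 2.3.3 in Python 3.11.15.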

Additional observations from a re-analysis of the deposited data

How the results depend on the processing

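The count of genes correlated with a trait stayed at 0 for LEA, FA and MFR under all 10 alternatives, and 27 of 300 recomputed correlations, none of them called, changed sign. Removal of the first component alone and of the 10 arrays least like the others were added after the data were seen. The count of called pairs was 36, beside 20.3% to 84.8% of all transcripts called for the 10 genes. With 5 components removed it was 14 beside 1.8% to 17.2%, and with the first component removed 20 beside 10.7% to 51.9%. It was 33 to 39 under the other 7 alternatives, where these shares lay between 11.4% and 86.2%. Of the pairs that changed sign with 5 components removed, APOA1 with APOC2 went to -0.03, APOA1 with APOC3 to -0.21, APOA2 with APOB to 0.17, APOA2 with APOE to -0.01, APOA2 with MTTP to 0.02 and APOA5 with APOB to 0.27. APOA5 with APOE went to -0.05, APOB with APOC2 to 0.04, APOB with APOC3 to 0.16, APOC2 with MTTP to 0.02, APOC3 with MTTP to 0.06 and APOE with APOH to 0.20. With the first component removed APOA1 with APOB went to 0.01, APOA1 with APOC2 to -0.07, APOA1 with APOC3 to -0.21, APOA2 with APOB to 0.01, APOA5 with APOE to -0.03 and APOE with APOH to 0.01. The count of genes that differed between number series was 9, beside 88% of all transcripts, and 4 with 5 components removed, beside 38.5% of them. The cause of these changes was not tested. No paired analysis was possible because all pigs form 1 group. Arrays give no depth, and the trait correlations could not reach a call below a rho of about 0.230 in size.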
